A study of Mus musculus with 6 samples.

Results

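The signals of the proteins Tgif1 and Tgif2 were compared at matched summits of their ChIP-seq peaks in mouse embryonic stem cells. A summit is the position of highest signal in a peak, and a Tgif1 and a Tgif2 summit formed a pair when each was the nearest of the other's list and they lay at most 200 bp apart on chromosomes 1 to 19. This gave 10207 pairs from 16273 Tgif1 peaks and 18976 Tgif2 peaks, out of 69679 peaks of 5 factors on these chromosomes. A pair thus formed for 62.7% of Tgif1 peaks (95% Wilson interval 62.0 to 63.5) and 53.8% of Tgif2 peaks (53.1 to 54.5). The pairs held 66.5% of the Tgif1 tags and 60.9% of the Tgif2 tags in these lists, a tag being a mapped read counted inside a peak.

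Tgif1 and Tgif2 are paralogous TALE homeodomain proteins. They bind DNA directly, hold back transcription through histone deacetylases and other corepressors, and can bind the Smad proteins that carry TGF-beta and Nodal signals to chromatin. In embryonic stem cells those signals act on many of the same control regions as the pluripotency factor Nanog. The question here was how alike the signals of the paralogs were at the places where both were found.

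Both libraries came from ChIP-seq on J1 mouse embryonic stem cells that contained BirA, a bacterial enzyme that puts biotin on proteins carrying its tag, and that were grown with serum and leukemia inhibitory factor. Tgif1 was pulled down with an antibody and Tgif2, per its sample label, with streptavidin beads, which hold biotin. The labels name no tagged form of Tgif2 and no level of it, and the series text names biotin-based ChIP for Nanog and says nothing of it for Tgif2, so how Tgif2 was pulled down is uncertain. Hdac1 (a histone deacetylase) and Smad3, used below as a further readout, were pulled down with antibodies, and Nanog with streptavidin beads. Each factor had 1 library, so no value has a replicate check, no test between libraries was possible, and a difference between the paralogs and one between the labelled antibody and streptavidin pull-downs cannot be told apart. A mock library from BirA cells belongs to the series and was not analysed here. Intervals of single ratios cover the counting error of tags only. Intervals of medians and shares treat pairs or peaks as independent draws and cover their spread only. Neighbouring pairs are not replicates, and no interval covers the variation between libraries.

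Summits within the pairs lay close together, with no lean to either side. The median distance was 28 bp (95% interval 27 to 29), 21.0% of pairs had summits within 10 bp and 71.2% within 50 bp. The Tgif2 summit had the higher coordinate in 5007 pairs and the lower in 5108, and the positions were equal in 92. The distance was shorter at stronger sites. With the pairs divided into 5 classes of 2041 or 2042 by their summed scaled tags (each tag number over the tag sum of its list), the median was 33 bp (31 to 35) in the weakest class and 22 bp (21 to 24) in the strongest. The distance limit did not mark a break in signal. The 1097 pairs over 100 bp apart had median tags of 55 for Tgif1 and 61 for Tgif2, and the 686 mutually nearest summits over 200 and up to 300 bp apart, which were left out, had 58 and 63.

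Tags per peak covered a similar range in both libraries. In the pairs, Tgif1 peaks held from 30 to 2391 tags with a median of 58, a 5th percentile of 33 and a 95th of 144. Tgif2 peaks held from 33 to 1758 tags with a median of 67, and percentiles of 36 and 167. To compare the libraries, each tag number was divided by the tag sum of its list on chromosomes 1 to 19, 1084815 for Tgif1 and 1338165 for Tgif2. The log2 ratio of these scaled tags, Tgif2 over Tgif1, had a median of -0.12 (95% interval -0.13 to -0.11), quartiles of -0.43 and 0.19 and an SD of 0.53 between pairs. The sign of that median rests on the scaling: with the tag sums of the matched pairs alone it was 0.0059. A direction of the median is therefore not given, and the depth of the libraries is not known from these lists.

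The 2 libraries ordered the sites alike, though loosely. Across the 10207 pairs Spearman's rho was 0.66 for tags and 0.73 for the deposited fold enrichment, and Pearson's r of the log2 values was 0.70 and 0.76. These are descriptions across sites, which share the genome, the mapping and the minimum of each list. Of the 1021 pairs with the most Tgif1 tags, 588 were also among the 1021 with the most Tgif2 tags, or 57.6% (54.5 to 60.6). Of the 100 leading pairs 49 were shared, by tags as well as by fold.

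**Figure D1:**
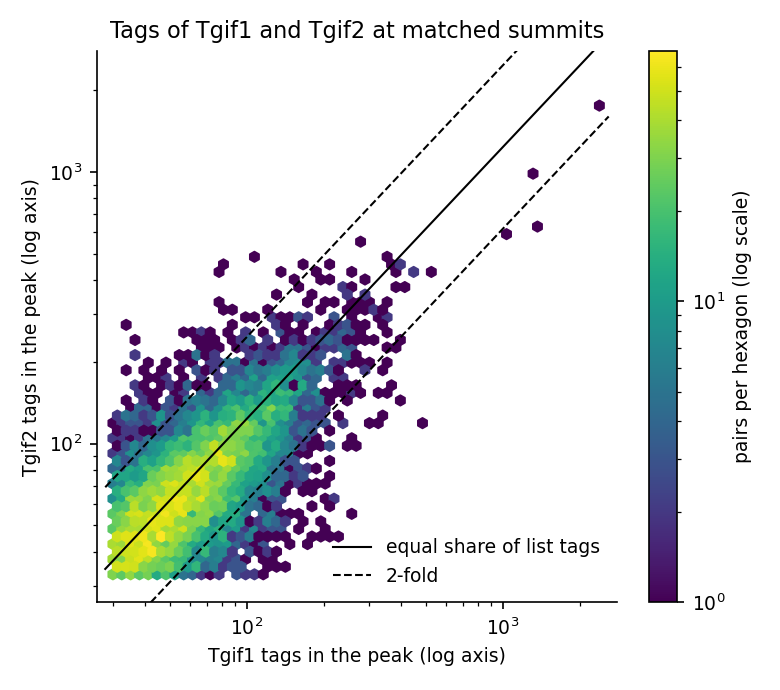
Tgif1 tags (horizontal, log axis) against Tgif2 tags (vertical, log axis) in the 10207 pairs, with colour for the number of pairs per hexagon, a solid line at equal share of the list's tags and dashed lines at 2-fold. The cloud follows the solid line, is cut off at the lowest tag numbers of 30 and 33, and 9494 pairs lie between the dashed lines.

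At most matched sites the paralogs held similar shares of their tags, within a limit set by the pairing. In 9494 pairs, 93.0% (92.5 to 93.5), the scaled tags differed by less than 2-fold. A pair needs a peak in both lists, with at least 30 Tgif1 tags and 33 Tgif2 tags. Pairs near these minima could not be 2-fold apart, and a site with a peak in 1 list only formed no pair. The 93.0% is thus in part set by the pairing and does not cover unpaired sites. The scaled tags were at least 2-fold higher for Tgif1 in 488 pairs, which is 4.78% of all pairs, and at least 2-fold higher for Tgif2 in 225, which is 2.2%. Of these 713 pairs 68.4% leaned to Tgif1. With the tag sums of the matched pairs as the scale, 50.5% of the pairs then 2-fold apart did so. Centred on the median pair, the ratio was 2-fold towards Tgif1 in 333 pairs (3.26%) and towards Tgif2 in 312 (3.06%), so the excess towards Tgif1 was not present under those scalings. The full range ran from -2.62 to 2.70 on the log2 scale, and 28 pairs reached 4-fold, 21 towards Tgif1 and 7 towards Tgif2. With the tag sums of the matched pairs as the scale these were 13 and 12.

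The spread of the ratio was wider than counting error. With Poisson counting alone, tag numbers of this size give a log2 ratio with an SD of 0.26, against the 0.53 observed, so the counting variance was 24.9% of the variance observed. With each list's tag sum as the scale, the exact 95% binomial interval of the ratio lay wholly on the Tgif1 side in 2061 pairs and wholly on the Tgif2 side in 987, together 29.9% of all pairs. With the tag sums of the matched pairs as the scale these were 1461 and 1440, so the excess towards Tgif1 was not present under that scale. How far 2 libraries of the same protein would differ is not known from these data.

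The excess over counting error was larger at stronger sites. In the weakest of the 5 classes by summed tags, where the median pair held 37 Tgif1 and 41 Tgif2 tags, the SD was 0.33 and the counting error also 0.33. Those pairs lie near the lowest tag numbers of both lists, so a strong tilt could not enter them. In the strongest class, with medians of 118 and 132 tags, the SD was 0.63 against a counting error of 0.19. Pairs at least 2-fold apart made up 0.049% of the weakest class, 4.16%, 8.86% and 10.9% of the next and 11.0% of the strongest, so the share was flat at the top. Pairs with a further overlapping peak went from 2.11% of the weakest class to 13.5% of the strongest. In pairs whose peaks overlapped only each other the SD was 0.33, 0.48, 0.53, 0.54 and 0.53 from the weakest class to the strongest, level over the upper 3 classes.

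**Figure D2:**
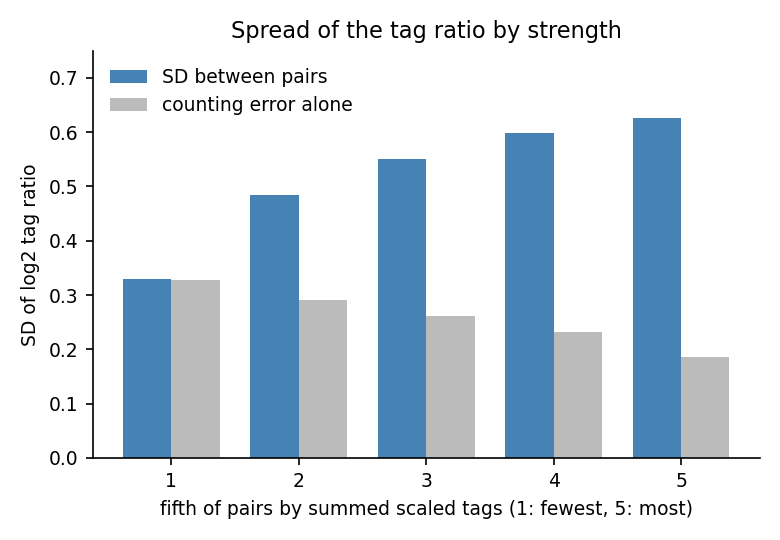
SD of the log2 ratio of scaled tags between pairs (blue) and the SD from counting error alone (grey) in 5 classes of pairs, ordered along the horizontal axis from the fewest to the most summed tags. The blue bars go from 0.33 to 0.63 while the grey bars go from 0.33 to 0.19.

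The tilt in tags went with how far the peak extended. Tgif2 peaks were slightly wider, with a median of 977 bp against 927 bp for Tgif1, and were the wider of the pair in 6077 cases against 4116. The widths agreed less well than the tags, with a rho of 0.59. In each library tags followed width, with a rho of 0.76 in both, whereas fold enrichment did not (-0.11 for Tgif1, -0.076 for Tgif2). Between the libraries, the log2 tag ratio of a pair followed its log2 width ratio with a rho of 0.68, and the ratio of fold enrichment followed the width ratio with 0.11. Among the 2343 pairs whose widths differed by at most 0.1 on the log2 scale, the SD of the tag ratio was 0.34 against a counting error of 0.26. In those pairs 30 were 2-fold apart, or 1.28% (0.90 to 1.82). Of these 25 were towards Tgif1 and 5 towards Tgif2, against 11 and 8 with the tag sums of the matched pairs as the scale.

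**Figure D3:**
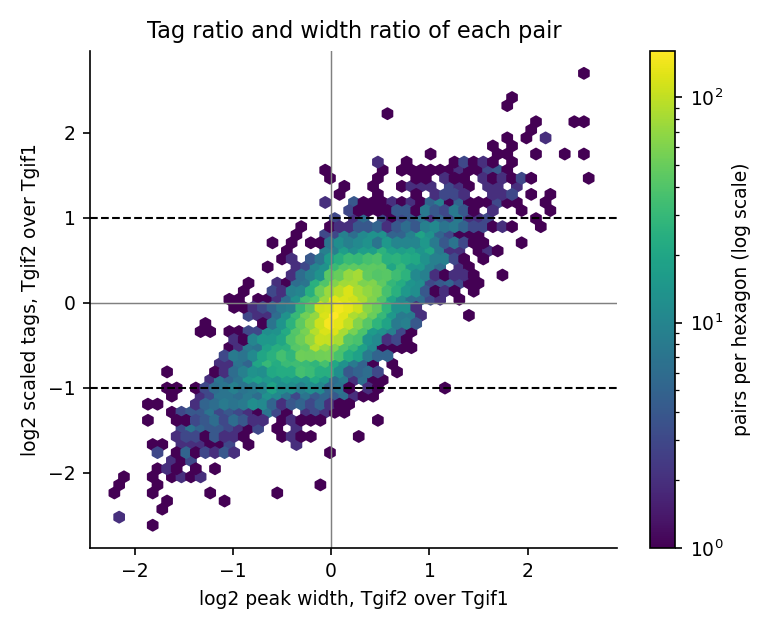
Log2 ratio of peak width (horizontal) against log2 ratio of scaled tags (vertical), both Tgif2 over Tgif1, in the 10207 pairs, with colour for pairs per hexagon and dashed lines at 2-fold. The cloud runs from the lower left to the upper right, so most pairs beyond the dashed lines also have peaks of unequal width.

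Some of the unequal widths were cases in which one list joined what the other split. In 9562 pairs, 93.7%, the peaks overlapped only each other. In the other 645 at least 1 of them also overlapped a further peak of the other list, the SD of the tag ratio was 0.96 against 0.49, and 35.5% were 2-fold apart against 5.06%. Of the 488 pairs tilted to Tgif1, 140 had a Tgif1 peak lying over more than 1 Tgif2 peak, or 28.7% (24.9 to 32.9), against 2.00% of the pairs within 2-fold. Of the 225 tilted to Tgif2, 86 had a Tgif2 peak over more than 1 Tgif1 peak, or 38.2% (32.1 to 44.7), against 2.46%. The median Tgif1 peak was 1506.5 bp wide in the pairs tilted to Tgif1, where the median Tgif2 peak was 801 bp. In the pairs tilted to Tgif2 the medians were 708 bp for Tgif1 and 1735 bp for Tgif2. When the tags of every Tgif1 and Tgif2 peak in a merged region were summed, an alternative chosen after seeing the data, 370 of 10140 regions were 2-fold towards Tgif1 and 148 towards Tgif2. With the tag sums of the matched pairs as the scale these were 228 and 220.

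The most tilted places show both forms. Coordinates are of the mm9 build as deposited, with the Tgif1 peak given first; no gene is named because annotation of that build was not used here. The pair furthest towards Tgif1 was chr11:117640733-117644023 with chr11:117643058-117644006. It held 224 Tgif1 tags and 45 Tgif2 tags, a log2 ratio of -2.62 (exact 95% interval -3.11 to -2.15). The fold enrichment there was 18.1 for Tgif1 and 18.5 for Tgif2, and the Tgif1 peak lay over 3 Tgif2 peaks. This was a tilt in tags and width with hardly any in fold. At chr19:5799951-5802839 the Tgif1 peak of 211 tags was 2888 bp wide and the Tgif2 peak of 45 tags, chr19:5802379-5803024, was 645 bp wide, with 14.1-fold and 13.8-fold enrichment and summits 6 bp apart. Among the 8 pairs furthest towards Tgif1, whose log2 ratios ran from -2.62 to -2.28, the Tgif1 peak was more than 2-fold wider in 7 and lay over several Tgif2 peaks in 5. The Tgif1 peaks chr10:80599503-80606930 and chr10:80606951-80609560, both in this set, lie next to each other, so the 8 pairs are not 8 separate places.

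The exception in width among these 8 was also the one with the largest difference in fold. At chr8:126472824-126473604 Tgif1 had 174 tags in 780 bp and 88.3-fold enrichment, and Tgif2, at chr8:126472990-126473528, had 44 tags in 538 bp and 11.4-fold. The log2 tag ratio was -2.29 (-2.80 to -1.80). Here tags and fold leaned the same way, and the site overlapped Hdac1 but neither Nanog nor Smad3. Another pair of the 8, chr17:35641494-35643547 with chr17:35642519-35643488, also differed in fold, 26.9 against 8.66, with 207 and 49 tags, and overlapped Hdac1, Nanog and Smad3.

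Towards Tgif2 the same forms were seen. The furthest pair was chr1:154751497-154752099 with chr1:154748595-154752163, where 34 Tgif1 tags in 602 bp stood against 272 Tgif2 tags in 3568 bp. The log2 ratio was 2.70 (2.18 to 3.26), the folds were 13.3 and 24.6, and the summits lay 4 bp apart. It was followed by chr11:52175184-52176091 with chr11:52173052-52176197, which held 38 and 246 tags and 17.3-fold and 38.4-fold enrichment. In 7 of the 8 pairs furthest towards Tgif2 the Tgif2 peak was more than 2-fold wider, and in 6 it lay over several Tgif1 peaks. The exception was chr6:127650796-127651486 with chr6:127650597-127651607, with 77 Tgif1 tags and 437 Tgif2 tags, 38.4-fold and 217-fold enrichment, widths of 690 and 1010 bp and summits 7 bp apart. Of the 8 pairs towards Tgif2 all overlapped Hdac1, 5 overlapped Nanog and 0 overlapped Smad3. Of the 8 towards Tgif1, 6 overlapped Hdac1, 6 Nanog and 2 Smad3. Over all pairs the shares were 72.5% for Hdac1, 39.2% for Nanog and 6.04% for Smad3. Most of these named pairs held a wide peak, and overlap depends on width. With 8 pairs at each end, the counts are too few to set against those shares.

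Tilts that both measures shared were fewer. Tags and fold enrichment belong to the same peaks of the same libraries, so their agreement is not an independent check. Fold enrichment centred on its median pair was at least 2-fold towards Tgif1 in 347 pairs (3.4%) and towards Tgif2 in 350 (3.43%). Among the pairs within 2-fold by tags, 49.1% leaned to Tgif1 by centred fold and 50.9% to Tgif2. Of the 488 pairs tilted to Tgif1 by tags, 396 (81.1%) leaned the same way by centred fold and 120 were 2-fold by it too. Of the 225 tilted to Tgif2 by tags, 178 (79.1%) leaned the same way and 58 were 2-fold. Leaving out pairs with a further overlapping peak left 110 and 53. Tags here were scaled by the list sums. With the tag sums of the matched pairs, tags alone gave 325 and 318 pairs in place of 488 and 225. The joint counts are not given under that scale, so no lean to either paralog is read from them. The strongest by fold of the 110 and 53 pairs, a set chosen after values had been seen, had Tgif1 peaks of ordinary width, 567 to 1289 bp. Towards Tgif1, the chromosome 8 site above led, and chr5:121995411-121996284 had 219 tags and 78.0-fold enrichment against 61 tags and 11.6-fold for Tgif2. Towards Tgif2, chr4:108520257-108521218 led with 153 tags and 69.9-fold against 42 tags and 11.2-fold for Tgif1. The next was chr3:88276617-88277560, which had 240 tags and 215-fold against 62 tags and 36.2-fold for Tgif1, and it overlapped none of the other 3 factors. At chr7:13365243-13366537 Tgif2 had 217 tags and 66.6-fold against 64 tags and 11.5-fold, in peaks of 1294 and 1289 bp.

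The sites with the most summed tags leaned to Tgif1 and were not those of highest enrichment. At chr15:74915880-74917530 Tgif1 had 2391 tags and Tgif2 1758, a log2 ratio of -0.75 (-0.84 to -0.66), with 21.1-fold and 16.4-fold enrichment. At chr8:19981528-19986688 the tags were 1277 and 1011, and at chr18:40467635-40468050 they were 1365 and 647, with 14.9-fold and 9.15-fold enrichment in peaks of 415 and 573 bp. All 6 pairs with the most summed tags had a log2 ratio below 0, from -1.38 to -0.40. In 1 of them, with a ratio of -1.07, the Tgif1 peak chr17:3081378-3084981 lay over 2 Tgif2 peaks. That ratio counts the 609 tags of the paired Tgif2 peak and not the 397 of the other. The highest fold enrichment among the 6 pairs was 78.5 for Tgif1 and 73.2 for Tgif2, at chr5:25003444-25005962. Over all pairs the highest fold was 289 for Tgif1 and 569 for Tgif2.

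The readout the pairing did not use was the presence of the other factors. Over all pairs, an Hdac1 peak overlapped either peak of the pair in 72.5% (71.6 to 73.4), a Nanog peak in 39.2% (38.2 to 40.1) and a Smad3 peak in 6.04% (5.60 to 6.52). The pairs were ordered by their log2 tag ratio into 5 classes, from most Tgif1 to most Tgif2. Nanog overlapped 984 of 2042 pairs in the class most tilted to Tgif1, 48.2% (46.0 to 50.4). The next classes had 43.6%, 38.1% and 34.9%, and the class most tilted to Tgif2 had 637 of 2041 pairs, 31.2% (29.2 to 33.3). Smad3 went the same way, with 9.65% (8.44 to 11.0) in the first class, 7.45%, 5.39% and 4.21% in the next and 3.53% (2.81 to 4.42) in the last. Hdac1 differed little, with 75.2% (73.3 to 77.0) in the first class, 70.3% (68.3 to 72.2) in the middle class and 73.5% (71.6 to 75.4) in the last.

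**Figure D4:**
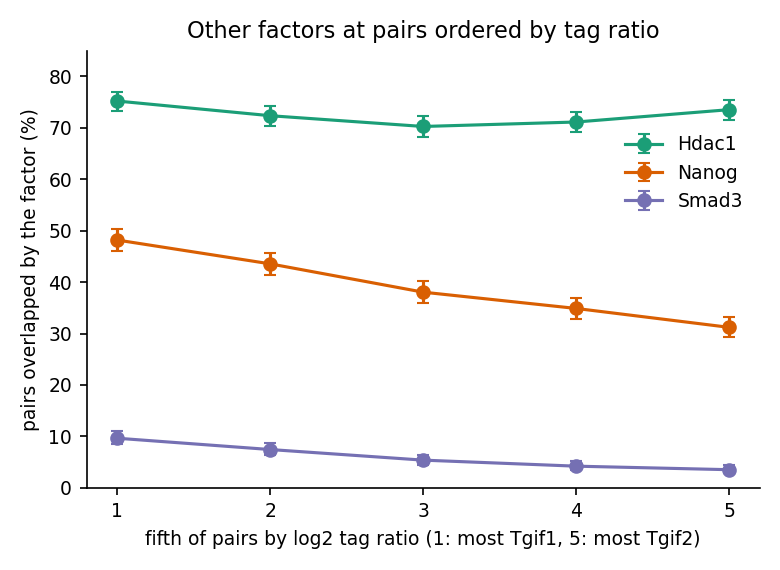
Share of pairs overlapped by Hdac1, Nanog or Smad3 (vertical, percent, with 95% Wilson intervals) in 5 classes of pairs from most tilted to Tgif1 to most tilted to Tgif2 (horizontal). Nanog goes from 48.2% to 31.2% and Smad3 from 9.65% to 3.53%, while Hdac1 lies between 70.3% and 75.2%.

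The differences between the outer classes, Tgif2 side minus Tgif1 side, were -17.0 percentage points for Nanog (95% interval -19.9 to -14.0), -6.12 for Smad3 (-7.65 to -4.62) and -1.68 for Hdac1 (-4.35 to 1.00). The Nanog and Smad3 differences were present at each level of signal. In the weakest, middle and strongest of 3 classes by summed tags, the Nanog difference was -13.6, -17.0 and -19.9 points, and the Smad3 difference was -2.93, -4.26 and -10.1. The Hdac1 difference was -3.14, -5.62 and 1.88, so its direction turned in the strongest class. Both were larger when the pairs were ordered by fold enrichment, which followed width little, at -24.7 points for Nanog and -7.54 for Smad3. The Hdac1 difference was then -4.86 points, beyond the interval it had by tags. By fold, Nanog overlapped 50.8% of the pairs most tilted to Tgif1 and 26.2% of those most tilted to Tgif2. The pairs at least 2-fold apart showed the same order with wider intervals, 45.7% (41.3 to 50.1) towards Tgif1 and 36.9% (30.9 to 43.4) towards Tgif2. Peaks of the class most tilted to Tgif1 were 1164 bp wide for Tgif1 and 849 bp for Tgif2 in the median, and those of the last class 802 and 1193 bp. With a summit of the other factor within 200 bp in place of overlap, which does not depend on width, the difference was -16.3 points for Nanog, -5.48 for Smad3 and -4.23 for Hdac1. With the pairs ordered by tags per bp the difference in overlap was -23.9 for Nanog, -7.44 for Smad3 and -4.91 for Hdac1.

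Seen from the other factors, the median ratio was lower in pairs with Nanog or Smad3 than in pairs without. The log2 tag ratio had a median of -0.20 (-0.22 to -0.18) in the 3999 pairs with Nanog and -0.073 (-0.086 to -0.061) in the 6208 without. It was -0.30 (-0.35 to -0.26) in the 617 pairs with Smad3 and -0.11 in those without, and -0.13 with and -0.11 without Hdac1. In the 3953 pairs with Hdac1 and neither Nanog nor Smad3 it was -0.059 (-0.074 to -0.040), in the 2855 with Hdac1 and Nanog -0.18 (-0.21 to -0.16), and in the 586 with all 3 it was -0.30 (-0.35 to -0.26). The 2246 pairs with none of the 3 had -0.096 (-0.12 to -0.080). Smad3 pairs also held more tags, with medians of 77 for Tgif1 and 79 for Tgif2, against 57 and 66 without Smad3. The rank agreement between the paralogs was 0.77 in pairs with Smad3 and 0.65 in pairs without, and 0.70 with and 0.64 without Nanog.

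At the same sites, the paralogs were closer to each other in order than either was to another factor, at each set of sites compared. At 5746 sites where the Tgif1, Tgif2 and Hdac1 summits were all matched, rho of tags was 0.67 between Tgif1 and Tgif2, 0.51 between Tgif1 and Hdac1 and 0.43 between Tgif2 and Hdac1. The SD of the log2 tag ratio was 0.52, 0.61 and 0.67 in the same order, and the median summit distance 28, 37 and 39.5 bp. At 3197 sites matched with Nanog, rho was 0.71 between the paralogs, 0.24 between Tgif1 and Nanog and 0.17 between Tgif2 and Nanog. At the 448 sites matched in all 5 lists, rho between the paralogs was 0.78, and Hdac1 had 0.58 with Tgif1 and 0.59 with Tgif2, so the order of the paralogs towards Hdac1 was not the same there. Smad3 had 0.44 with Tgif1 and 0.38 with Tgif2. Fold enrichment gave 0.72 between the paralogs, 0.50 for Tgif1 and Hdac1 and 0.47 for Tgif2 and Hdac1 at the 5746 sites. With 1 library per factor these differences between factor pairs have no test.

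Chromosome 1 stood apart from the other autosomes. The median log2 tag ratio was 0.064 (0.014 to 0.10) in its 791 pairs, whereas on the other 18 chromosomes it ran from -0.21 on chromosome 6 to -0.087 on chromosome 7. Scaled by the tag sums of the matched pairs, the median was 0.19 on chromosome 1 and ran from -0.080 to 0.040 on the others, 11 of which were then below 0. Chromosome 1 was above 0 and above the others under both scalings. The offset was spread over the chromosome: scaled by the list sums, in 20 Mb windows with at least 20 pairs the median was above 0 in 8 of 9 windows on chromosome 1 and in 3 of 113 windows elsewhere. These counts depend on that scale, which sets where 0 lies. The window medians overlapped, from -0.0032 to 0.20 on chromosome 1 and from -0.33 to 0.056 elsewhere. The median fold ratio was also highest on chromosome 1, at 0.21 against 0.035 to 0.15 elsewhere. Both libraries had high tags and low fold at these pairs. Median tags on chromosome 1 were 65 for Tgif1 and 87 for Tgif2, against 54 to 62 and 58 to 69.5 on the others, and median folds were 12.2 and 14.3, against 14.3 to 15.5 and 14.7 to 16.8. The lists held 1.37 Tgif2 peaks for each Tgif1 peak on chromosome 1 and 1.11 to 1.23 on the others. Among the other lists, Nanog had 1.39 peaks for each Hdac1 peak on chromosome 1 and 0.818 to 1.26 on the others. The part of these differences in peak number and tags in the offset was not tested. Nanog overlapped 51.3% of the chromosome 1 pairs, against 31.4% to 46.9% on the others. The chromosome 1 pairs made up 4.31% of the class most tilted to Tgif1 and 12.7% of the class most tilted to Tgif2. Without chromosome 1 the Nanog difference between the outer classes was -18.5 points.

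**Figure D5:**
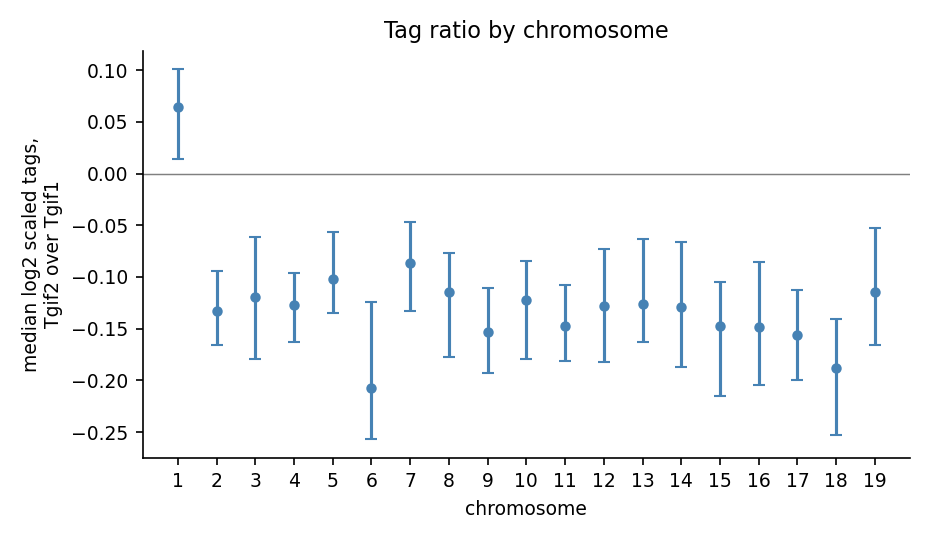
Median log2 ratio of scaled tags, Tgif2 over Tgif1 (vertical), for the pairs of each chromosome (horizontal), with 95% order-statistic intervals. Chromosome 1 lies at 0.064, above 0, and the other 18 lie between -0.21 and -0.087.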

How the data were processed

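Peak lists of 5 ChIP-seq libraries were used, 1 per factor. Per the submitters' processing notes, BWA 0.5.9-r16 and MACS were used, with the mm9 build. For MACS, the settings, control library and threshold are not given in the sources used here; the same holds for library depth. No list has a header. A whole number per peak was read as the count of tags, unscaled in the deposited lists. A value with 2 decimals was read as fold enrichment, a ratio over background computed by the authors. Positions are printed as deposited, with an uncertainty of 1 bp.

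Summits on chromosomes 1 to 19 were paired as described. Overlap meant at least 1 bp. Shares have 95% Wilson intervals, medians have order-statistic intervals over pairs, and single ratios have exact binomial intervals. The interval of a difference between shares was built from the Wilson bounds of both. No test was run. Named pairs are the 8 at each end of the tag ratio and the 6 with the most summed scaled tags. Named unpaired peaks are the 4 with the most tags per list and no summit of the other within 1000 bp. Members and measures were chosen with earlier results of these data known. Gene names and motifs were not analysed here, because the reference given was of another build. Alternatives changed the distance limit, scaling, measure, chromosomes and filters; the rescaled counts of 4-fold pairs, like-width pairs, merged regions and counting intervals were added after seeing the data. Pairing was tested on simulated partners, made from a part of the Tgif1 peaks with summits moved slightly. These had no peaks of their own, no split peaks and no minimum of tags like those of the lists. The test thus covers the working of the pairing and not how the real lists behave. Python 3.11.15, NumPy 2.4.6, pandas 2.3.3, SciPy 1.17.1 and matplotlib 3.10.9 were used.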

Additional observations from a re-analysis of the deposited data

How the results depend on the processing

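Of 90 alternative values, 64 kept their direction and stayed within their limit, which was 0.1 for log2 medians, SDs and correlations, 1.5 times for counts and the 95% interval for shares and distances. The median log2 tag ratio turned from -0.12 to 0.0059 with the tag sums of the matched pairs and to 0.032 with tags per bp. With tags per bp the SD was 0.36, and 38 pairs were 2-fold towards Tgif1 and 61 towards Tgif2. With the tag sums of the matched pairs 325 were 2-fold towards Tgif1. By centred fold 350 pairs were 2-fold towards Tgif2, against 225 by tags scaled to the list sums. By those scaled tags, 139 pairs whose peaks overlap only each other and 148 merged regions were 2-fold towards Tgif2. Both of these alternatives were chosen after seeing the data. With the tag sums of the matched pairs the merged regions numbered 220. Restricting both lists to peaks with at least the median fold gave 4723 pairs. The median summit distance was 24 bp with a limit of 100 bp and 35 bp with 500 bp. Ordered by fold and by tags per bp, the difference in overlap between the outer classes was -4.86 and -4.91 points for Hdac1, and -24.7 and -23.9 for Nanog. The medians of centred ratios are 0 by construction and were not listed. No paired analysis was possible because each factor had 1 library. The lowest tag numbers of the lists, 30 and 33, limit the tilt that weak pairs can show.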

Other observations

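Peaks without a partner differed between the paralogs in the same direction as the tilted pairs. Of the Tgif1 peaks, 3264 (20.1%) overlapped no Tgif2 peak and had no Tgif2 summit within 1000 bp, and of the Tgif2 peaks 5925 (31.2%) had no such Tgif1 neighbour. The Tgif2 list was the longer, with 18976 peaks against 16273, and the part of list length in these shares was not tested. The lone peaks were weaker than peaks in pairs, with a median of 40 tags for Tgif1 and 44 for Tgif2 against 58 and 67, and narrower, at 824 and 821 bp against 927 and 977 bp. Hdac1 overlapped 43.6% (41.9 to 45.3) of the lone Tgif1 peaks and 34.4% (33.2 to 35.7) of the lone Tgif2 peaks, against 72.2% and 72.3% of those in pairs. Nanog overlapped 35.3% (33.6 to 36.9) of the lone Tgif1 peaks and 38.7% (37.8 to 39.7) of the Tgif1 peaks in pairs. For Tgif2 the shares were 21.7% (20.6 to 22.7) of the lone peaks and 38.9% (37.9 to 39.8) of those in pairs. Smad3 overlapped 3.62% of the lone Tgif1 and 1.10% of the lone Tgif2 peaks. With a Nanog summit within 200 bp in place of overlap, the Nanog shares of lone peaks were 29.5% and 17.0%.

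A further 2708 Tgif1 and 2719 Tgif2 peaks overlapped a peak of the other list without forming a pair. They were wide, with medians of 1128.5 and 1175 bp, and held as many tags as peaks in pairs, with medians of 62 and 68, at a lower fold enrichment, with medians of 11.4 for Tgif1 and 12.0 for Tgif2 against 14.6 and 15.7.

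The unpaired peaks with the most tags combined many tags with modest enrichment, from 5.32-fold to 19.1-fold. The leading Tgif1 peak was chr8:19860511-19863920 with 407 tags and 7.68-fold enrichment, and the leading Tgif2 peak was chr8:19923765-19930269 with 833 tags and 7.90-fold, both at lower coordinates than the pair at chr8:19981528-19986688. The next of each list were chr6:47712181-47715585 with 356 Tgif1 tags and chr6:47701949-47704458 with 457 Tgif2 tags, whose summits lay 3915 and 4765 bp from the nearest summit of the other list. The Tgif2 peak chr6:47633368-47637083 held 397 tags. Of the other leading unpaired peaks, chr10:79620883-79624863 with 314 tags and chr7:20400104-20403512 with 312 for Tgif1, and chr17:3081372-3083310 with 397 for Tgif2, each overlapped a peak of the other list. The chromosome 17 peak was thus not a separate site: it lay under the Tgif1 peak chr17:3081378-3084981, which was paired with another Tgif2 peak.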
